A study of Rattus norvegicus with 50 samples.

Results

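The 198 genes described here were lower in the kidney of obese than of lean ZSF1 rats in both cortex and medulla, out of 32545 Ensembl gene IDs in the deposited table. They were chosen by 3 measured values. On the log2(FPKM + 0.5) scale, the mean of obese vehicle libraries lay at least 1 below that of lean vehicle libraries in medulla and at least 0.5 below it in cortex. The mean FPKM (fragments counted on a transcript relative to its length and to the library's mapped total) was at least 2 in both lean groups, which 10226 IDs met, and 1 ID, ENSRNOG00000010932, was left out by the rule. The falls with obesity are therefore what chose the members and are given only as a description. The question asked of the data was how the members stood under enalapril and under 2 doses of MK-8722.

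Kidney cortex and kidney medulla were each sequenced in 5 groups of 5 libraries, 50 libraries in all, and every rat was of the ZSF1 strain. The lean group was given vehicle. The 4 obese groups were given vehicle, enalapril at 10 mpk, MK-8722 at 1 mpk or MK-8722 at 10 mpk, with mpk written as in the labels. Each group is labelled as treated for 28 weeks and as aged 20 weeks, which cannot both hold on the day of collection. The labels name no animals, so it is unknown which cortex and medulla libraries share a rat, and the tests rest on the spread among libraries alone, which may be technical.

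The obese ZSF1 rat carries defective leptin receptors and develops obesity, diabetes and progressive kidney disease, while lean rats of the strain stay free of obesity and diabetes. The renal cortex holds the glomeruli and most proximal tubules, which reclaim filtered solutes. The medulla holds the loops of Henle and collecting ducts, which concentrate the urine. MK-8722 activates AMP-activated protein kinase, a sensor of cellular energy state, in all its forms, and enalapril blocks angiotensin-converting enzyme. The deposited table gives Ensembl IDs without gene names, and 0 of them matched the reference gene table of 47357 genes. Members are therefore given by ID, their functions are not stated, and neither the labelled tissues nor cell types could be checked against marker genes.

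Libraries differed in depth and composition. Relative depth, read from the value of 1 fragment in low genes, ranged from 0.599 to 1.53. In medulla it was 0.992 to 1.18 in lean vehicle and 0.599 to 0.815 in obese vehicle libraries, without overlap, so depth and obesity cannot be told apart there. The 6 IDs with the highest values in a library held much of its summed FPKM. In medulla they held 60.1% to 63.4% in lean and 52.3% to 55.2% in obese vehicle libraries, again without overlap. In cortex they held 59.1% to 64.1% and 41.6% to 59.6%. The median of all genes moved between groups as well, by log2 0.30 in cortex and 0.37 in medulla from lean to obese vehicle. Member values are therefore given beside the same value over all tested genes, and counts also after each library was rescaled by its median ratio. In bulk tissue, fewer cells of a type and less RNA per cell cannot be told apart.

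The falls that chose the members were deeper in medulla, where the rule asked for a larger fall. Obese vehicle was lower than lean vehicle by a median log2 of -1.38 in medulla (range -4.61 to -1.003) and -0.77 in cortex (range -2.67 to -0.51). In 186 of 198 members the fall was larger in medulla, which the unequal thresholds favour. In medulla 18 members lay at -2 or below, against 5 in cortex. The members nearest the thresholds fell by 1.003 in medulla and 0.505 in cortex, and the nearest IDs left outside fell by 0.999 and 0.496. At the FPKM minimum the nearest member had 2.04 and the nearest ID outside had 1.93. In limma, 181 of 197 members tested in cortex were called lower, where 6.83% of all genes were called lower and 54.3% higher. In medulla 196 of 198 were called lower, where 10.9% of all genes were called lower and 56.8% higher. These calls use the libraries of the rule and are read no further.

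ENSRNOG00000019481 and ENSRNOG00000052810 had the deepest falls in medulla. ENSRNOG00000019481 was at 23.0, 33.8, 25.6, 32.6 and 22.4 FPKM in the lean medulla libraries and at 1.05, 0.555, 2.12, 0.222 and 0.0900 FPKM in obese vehicle. ENSRNOG00000052810 averaged 39.2 ± 9.25 and 4.70 ± 4.25 FPKM in the same groups (SD, n = 5). The highest obese value of either gene lay far below its lowest lean value. ENSRNOG00000024903 and ENSRNOG00000036984 had the deepest falls in cortex. ENSRNOG00000024903 was at 79.7, 146, 43.4, 54.1 and 24.4 FPKM in lean and 37.2, 20.7, 2.62, 3.57 and 6.18 FPKM in obese vehicle cortex, so 1 obese library lay above the lowest lean library. In medulla the same gene was at 558 to 698 FPKM in lean and 31.0 to 166 FPKM in obese vehicle, and ENSRNOG00000036984 was at 39.2 to 47.4 and 1.97 to 13.2 FPKM. Both were thus mainly medullary genes, whose cortex values varied several times over between libraries of 1 group.

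As a group the members were strongly expressed and leaned towards medulla. The rule used the same lean libraries and asked for a larger fall in medulla. It thus favours high lean levels and medullary genes, and the values below are a description. Their median FPKM in lean rats was 44.5 in medulla and 26.4 in cortex, against 10.3 and 9.38 for all IDs that met the lean minimum. In lean rats 74 members (37.4%) were at least 2-fold higher in medulla than in cortex, compared with 4.0% of the IDs that met the minimum. Another 14 members (7.07%) were at least 2-fold higher in cortex, compared with 2.76%. The remaining 110 were within 2-fold. A lean FPKM of 100 or more was found for 52 members in medulla and 35 in cortex.

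**Figure D1:**
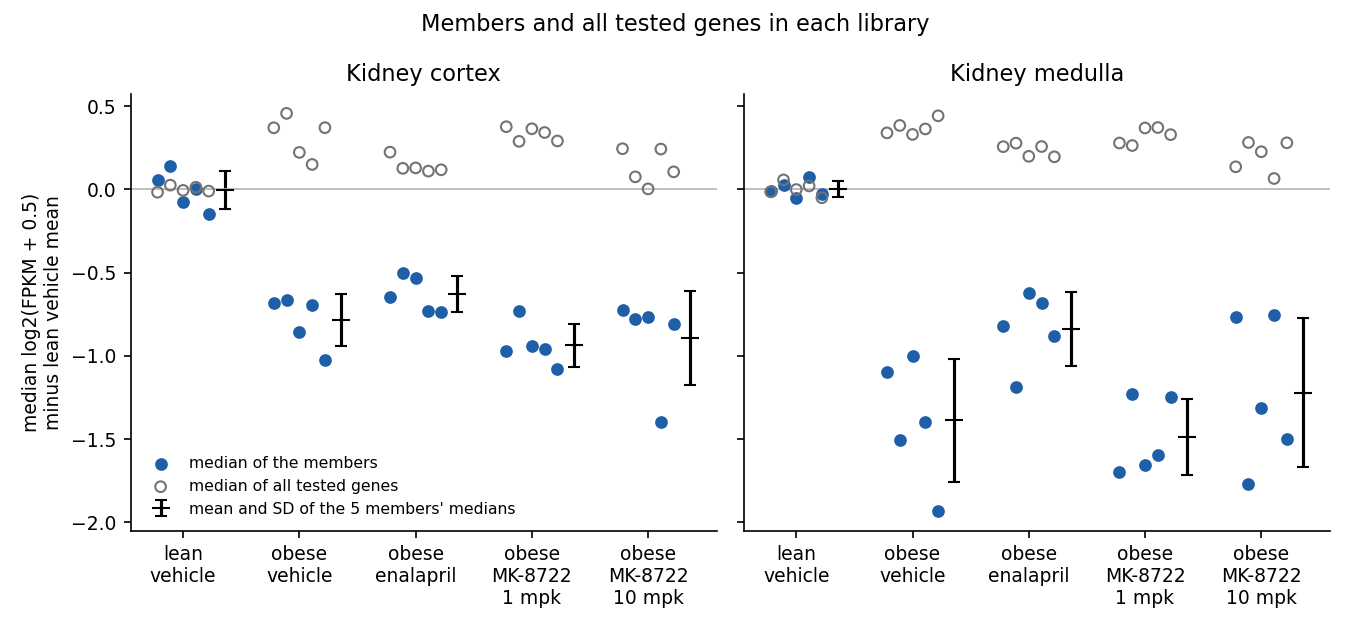
Each point is 1 library: the median over the members (filled) and over all tested genes (open) of log2(FPKM + 0.5) minus the lean vehicle mean of that tissue, by group, with the mean and SD of the 5 filled points beside them. Filled points of every obese group lie below the lean libraries in both tissues, the enalapril group has the highest mean of the obese groups in each tissue, and 1 cortex library of MK-8722 10 mpk lies apart at -1.40. The lean and obese vehicle libraries also chose the members, so their distance is set by the rule.

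Measured library by library, the members stayed below lean in every obese group. The lean and obese vehicle libraries are those of the rule, which placed obese vehicle below lean. All distances to lean share that choice, which favours values below lean, and they are a description. In cortex their median distance to lean averaged -0.78 ± 0.15 in obese vehicle, -0.63 ± 0.11 in enalapril, -0.94 ± 0.13 in MK-8722 1 mpk and -0.89 ± 0.28 in MK-8722 10 mpk (log2, SD, n = 5). In medulla it averaged -1.39 ± 0.37, -0.84 ± 0.22, -1.48 ± 0.23 and -1.22 ± 0.45 in the same order. In the plot of library medians, the obese vehicle libraries of cortex (-1.02 to -0.66) overlap every drug group. The enalapril libraries (-0.74 to -0.50) barely reach those of 1 mpk (-1.08 to -0.73) and of 10 mpk (-1.40 to -0.72). One cortex library, MK-8722 10 mpk replicate 6, stood apart at -1.40, while the other 4 of its group lay between -0.81 and -0.72. The 5 medulla libraries of MK-8722 10 mpk spread over -1.77, -1.5, -1.31, -0.77 and -0.76, so that group held both low libraries and libraries level with enalapril.

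Only comparisons between drug groups compare no library of the rule, and 3 of them can be made in each tissue. The 25 libraries of a tissue shared 1 estimate of the spread in these fits. They were fitted over all genes with limma, and a member was called when its two-sided p, adjusted by Benjamini-Hochberg across every gene tested, was under 0.05. Every log2 difference below is on the log2(FPKM + 0.5) scale, which understates differences of low genes.

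**Figure D2:**
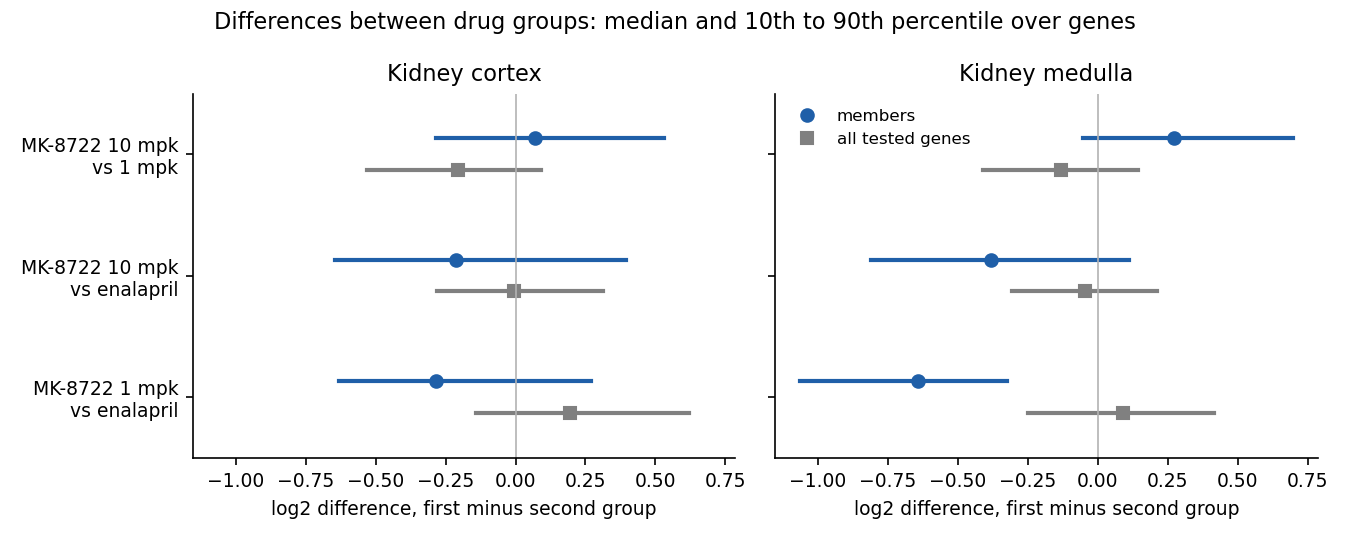
For each comparison of 2 drug groups, the circle and line give the median and the 10th to 90th percentile of the log2 difference over the members, and the square and line give the same over all tested genes. Members lie to the right of all genes at 10 mpk against 1 mpk and to the left of all genes against enalapril, in both tissues.

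A set of members was higher at 10 mpk than at 1 mpk of MK-8722. In cortex 31 of 197 members were called higher and 1 lower, whereas 2.24% of all genes were called higher and 28.0% lower. The members' median log2 difference was 0.07, against -0.21 for all genes. In medulla 20 of 198 were called higher and 0 lower, whereas 1.02% of all genes were called higher and 4.90% lower. There the members' median was 0.27 against -0.13, and 174 of 198 members lay above 0. After rescaling, 38 members were higher and 0 lower in cortex (all genes 4.91% and 4.90%), and 19 and 0 in medulla (1.65% and 1.21%).

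Among called members without overlap, ENSRNOG00000006873 had the largest dose difference in both tissues. In cortex it was at 312, 392, 361, 231 and 440 FPKM at 10 mpk and at 61.4, 109, 78.5, 85.3 and 67.4 FPKM at 1 mpk. Every library of the higher dose lay above every library of the lower dose, a log2 difference of 2.10 (SE 0.18, limma adjusted p = 9.15e-08). In medulla it was at 237, 163, 249, 264 and 123 FPKM against 56.7, 114, 57.2, 56.5 and 47.6 FPKM, again without overlap (1.65, SE 0.33, adjusted p = 0.0104, and 0.0565 with the replicate number as a block). Lean vehicle stood at 136 ± 11.9 FPKM in cortex and 166 ± 15.4 in medulla, and obese vehicle at 52.5 ± 11.9 and 58.9 ± 30.2 (SD, n = 5). The 10 mpk mean was thus above the lean mean in both tissues, while the 1 mpk mean was below it. Enalapril stood at 47.2 ± 11.3 FPKM in cortex, no higher than obese vehicle, and at 117 ± 30.9 in medulla.

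ENSRNOG00000020951 had a dose difference of nearly the same size in cortex and medulla. Cortex libraries were at 49.5, 54.6, 70.7, 41.3 and 62.1 FPKM at 10 mpk and 20.4, 18.1, 18.6, 21.4 and 28.2 FPKM at 1 mpk (log2 1.36, SE 0.12, limma adjusted p = 9.13e-08). Medulla libraries were at 75.6, 75, 69.4, 72.4 and 53.3 FPKM against 25.3, 30.6, 25.4, 21.3 and 23.2 FPKM (1.44, SE 0.15, adjusted p = 8.55e-06). The doses did not overlap in either tissue. At 1 mpk the gene was close to obese vehicle, at 19.9 ± 2.23 FPKM in cortex and 23.7 ± 5.97 in medulla. At 10 mpk it averaged 69.2 ± 9.19 FPKM in medulla, where lean vehicle averaged 72.2 ± 6.29 (SD, n = 5).

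**Figure D3:**
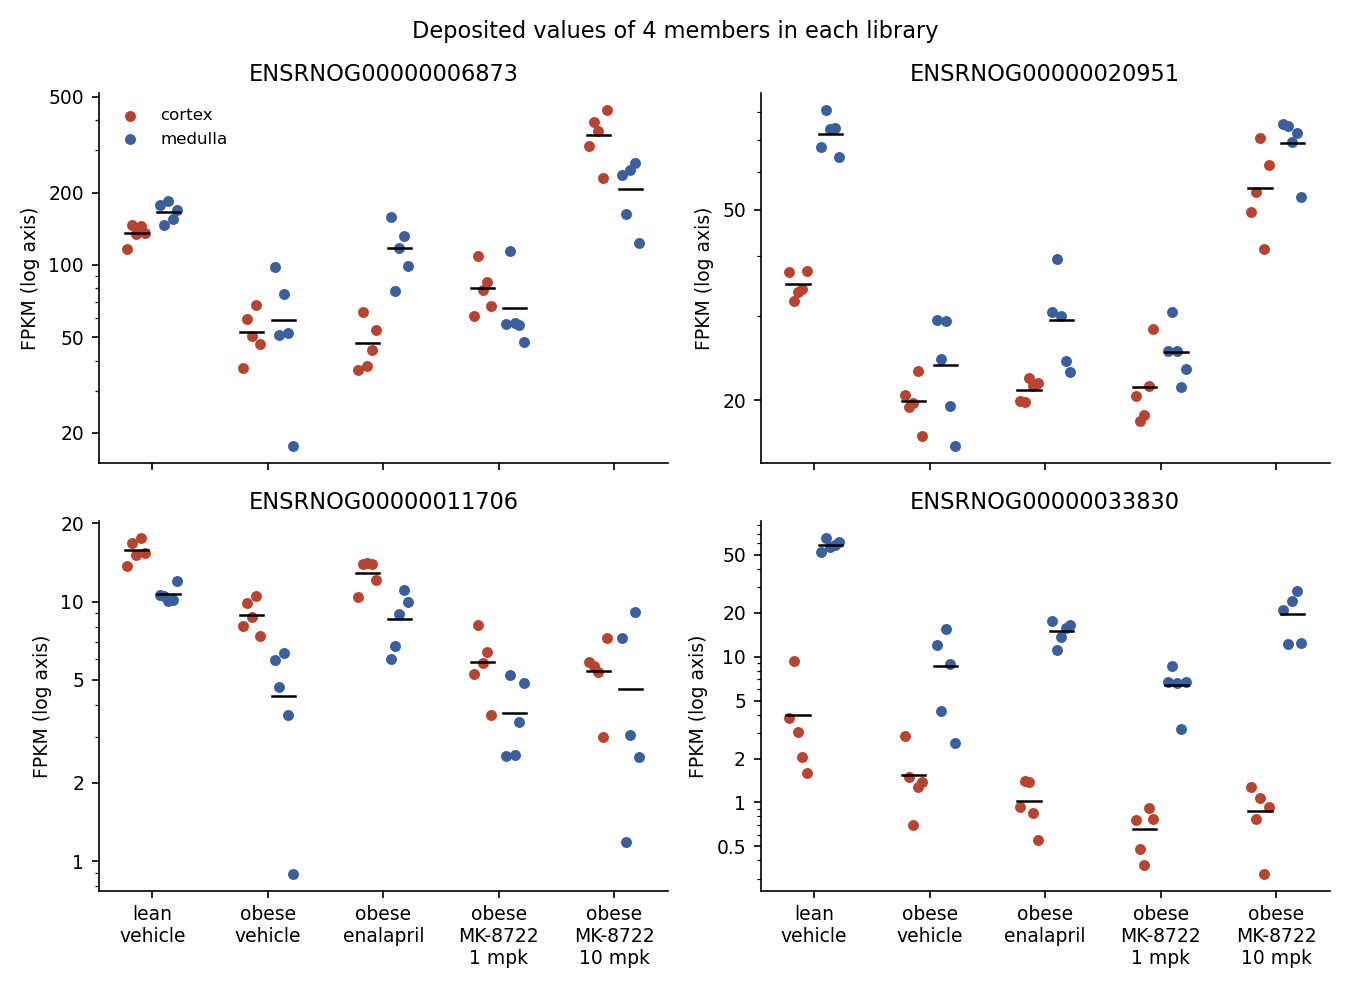
FPKM of 4 members in each cortex and medulla library on log axes, by group, with black lines at group means. ENSRNOG00000006873 and ENSRNOG00000020951 are high at MK-8722 10 mpk in both tissues, ENSRNOG00000011706 is higher in enalapril than in either MK-8722 group in cortex, and ENSRNOG00000033830 is a mainly medullary gene that is higher at 10 than at 1 mpk in medulla.

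ENSRNOG00000033830 also had a dose difference in medulla, at 21.0, 12.2, 24.2, 28.1 and 12.4 FPKM at 10 mpk and 6.69, 8.60, 6.65, 3.21 and 6.75 FPKM at 1 mpk. All values of the higher dose lay above those of the lower dose (log2 1.53, SE 0.34, limma adjusted p = 0.0165). The adjusted p was 0.111 with the replicate block, 0.0601 without MK-8722 10 mpk replicate 5 and 0.0599 without MK-8722 1 mpk replicate 6. All values of both doses lay below the lean range of 52.5 to 65.4 FPKM. Its cortex values were 0.323 to 1.27 FPKM at 10 mpk and 0.373 to 0.908 FPKM at 1 mpk, which overlapped. ENSRNOG00000032246 was the 1 member called lower at 10 mpk in cortex, at 50.9, 45.3, 46.0, 45.3 and 45.8 FPKM against 62.4, 84.9, 56.6, 52.2 and 52.5 FPKM (-0.38, SE 0.11, adjusted p = 0.0148). That difference ran with the all-gene median of -0.21, and after rescaling it was -0.17 and not called (adjusted p = 0.354).

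The dose counts moved with single libraries. Shares over all genes were counted in the main fit and after rescaling alone. Counts in other fits therefore cannot separate a change in the members from a change across all genes. In cortex the calls numbered 61 without MK-8722 10 mpk replicate 6, of which 60 were higher, and 21 without MK-8722 10 mpk replicate 5 or 7 or MK-8722 1 mpk replicate 4. In medulla, leaving out 10 mpk replicate 1, 3 or 5 gave 9, 11 and 10, and leaving out its replicate 2 gave 32. Leaving out 1 mpk replicate 1, 4, 6 or 7 gave 12, 12, 7 and 11. In every one of these medulla fits 0 members were called lower. Called higher each time any library was left out were 18 members in cortex and 7 in medulla. Relative depth was 1.03 to 1.51 at 10 mpk and 0.966 to 1.27 at 1 mpk in cortex, and 0.751 to 1.06 and 0.625 to 0.982 in medulla. With relative depth as a term 10 were called in cortex and 11 in medulla, and with only the 2 groups fitted 15 were called in cortex.

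Members called higher at 10 mpk were partly the same in the 2 tissues, which share no library. Of the 31 in cortex and 20 in medulla, 11 were called in both, which is 35.5% of the cortex list and 55.0% of the medulla list. Called or not, 114 of 197 members (57.9%) had a dose difference of the same sign in both tissues. Against enalapril that share was 81.7% at 1 mpk and 78.2% at 10 mpk. Sharing between tissues was not counted over all genes, so the overlap is a description. The dose difference itself was compared between tissues in 1 fit of all 50 libraries. It gave 0 called members of 198, with a smallest adjusted p of 0.128, and 13 members had an unadjusted p under 0.05. The difference, cortex minus medulla, was below 0 for 147 of 198 members, with a median of -0.19 against -0.08 for all genes. Over all genes, 0.0686% and 0.0617% were called higher and lower in that fit and 10.4% had an unadjusted p under 0.05. No alternative gave a called member, so a tissue difference of the dose difference was not detected for any member.

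**Figure D4:**
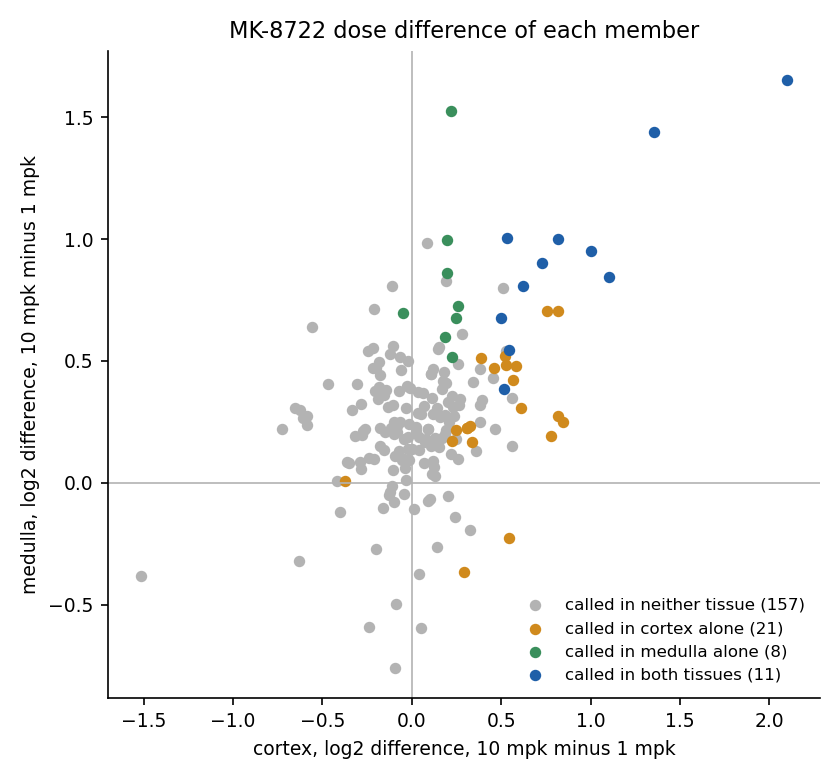
Each point is 1 of the 197 members tested in both tissues: its log2 difference between MK-8722 10 mpk and 1 mpk in cortex (x axis) and medulla (y axis), coloured by where it was called. The 11 members called in both tissues all lie to the upper right, led by ENSRNOG00000006873 and ENSRNOG00000020951.

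Against enalapril, a set of members was lower at 1 mpk of MK-8722 in both tissues, and most members were not called. In cortex 66 of 197 members were called lower and 2 higher, whereas 3.49% of all genes were called lower and 28.8% higher. The members' median log2 difference was -0.29, against 0.20 for all genes. In medulla 85 of 198 were called lower and 0 higher, whereas 2.78% of all genes were called lower and 4.33% higher. There the median was -0.64 against 0.09, and 191 of 198 members lay below 0. After rescaling the counts were 90 lower and 1 higher in cortex (all genes 8.75% and 11.8%), and 87 and 0 in medulla (3.73% and 3.27%). Of the 66 and 85 members called lower, 37 were shared, which is 56.1% of the cortex list and 43.5% of the medulla list. Sharing between tissues was not counted over all genes, so this overlap is a description and not a trait of the members.

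In cortex the largest of these differences, among called members without overlap, belonged to ENSRNOG00000002456 and ENSRNOG00000011706. ENSRNOG00000002456 was at 11.0, 9.67, 10.7, 9.09 and 9.40 FPKM under enalapril and at 3.72, 4.23, 3.90, 4.89 and 3.97 FPKM at 1 mpk (log2 -1.18, SE 0.18, limma adjusted p = 0.000707). ENSRNOG00000011706 was at 10.4, 14, 14.1, 13.9 and 12.1 FPKM under enalapril and at 5.26, 8.14, 5.81, 6.37 and 3.66 FPKM at 1 mpk (-1.11, SE 0.17, adjusted p = 0.000722). Neither pair of groups overlapped. Both genes stood nearest to lean under enalapril, with lean cortex at 13.8 ± 2.19 FPKM for the former and 15.7 ± 1.49 for the latter (SD, n = 5). The 2 members called higher at 1 mpk were ENSRNOG00000006873 (0.76, adjusted p = 0.00482) and, named after its values were seen, ENSRNOG00000007839 (0.28, adjusted p = 0.0471), which after rescaling was not called.

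In medulla the largest, among called members without overlap, belonged to ENSRNOG00000003288 and ENSRNOG00000019481. ENSRNOG00000003288 was at 38.6, 35.8, 46.2, 44.0 and 32.7 FPKM under enalapril and at 10.8, 17.5, 9.66, 7.94 and 14.4 FPKM at 1 mpk (log2 -1.71, SE 0.47, limma adjusted p = 0.0332). ENSRNOG00000019481 was at 2.67, 1.01, 3.97, 3.34 and 1.83 FPKM under enalapril and at 0.385, 0.538, 0.565, 0.431 and 0.177 FPKM at 1 mpk (-1.66, SE 0.30, adjusted p = 0.00874). The groups did not overlap for either gene, yet ENSRNOG00000019481 was far below its lean medulla level in both. The call of ENSRNOG00000003288 was lost in 9 of 16 alternatives, with adjusted p of 0.0501 to 0.114, and that of ENSRNOG00000019481 in 0 of 16.

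The cortex count against enalapril was the steadier of the 2. Shares over all genes were not counted in the fits below, so the counts show only how far the member calls moved. It ranged from 50 to 77 when each library was left out, and 45 members were called lower each time. In medulla it was 36, 8, 31 and 36 when enalapril replicate 2, 5, 6 or 7 was left out, and 130 when its replicate 3 was. It was 18, 19 and 10 when 1 mpk replicate 1, 4 or 6 was left out. Of the 85, 8 were called lower each time, and 0 members were called higher in any of these fits. It was 40 without the filter on low values and 3 with the replicate number as a block.

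The higher dose also stood below enalapril for more members than above it. In cortex 40 of 197 members were called lower at 10 mpk and 13 higher, whereas 5.80% of all genes were called lower and 3.83% higher. The members' median log2 difference was -0.21, against -0.00 for all genes. In medulla 15 of 198 were called lower and 4 higher, whereas 1.92% of all genes were called lower and 0.817% higher, with medians of -0.38 and -0.05. After rescaling, 31 were lower and 13 higher in cortex (all genes 5.10% and 5.69%), and 7 and 4 in medulla (0.764% and 1.27%). The members called lower in the 2 tissues shared 7, which is 17.5% of the cortex list and 46.7% of the medulla list, while all 4 called higher in medulla were among the 13 in cortex. Here too sharing was not counted over all genes.

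Among members lower at 10 mpk than under enalapril in cortex, ENSRNOG00000011706 was at 5.87, 5.63, 5.35, 3.0 and 7.23 FPKM (log2 -1.22, SE 0.17, limma adjusted p = 3.15e-05). ENSRNOG00000059834 was at 5.78, 6.07, 5.01, 4.04 and 5.45 FPKM, against 9.15, 9.05, 10.9, 10.6 and 10.2 FPKM under enalapril (-0.87, SE 0.12, adjusted p = 1.83e-05). Lean cortex averaged 10.9 ± 1.36 FPKM for this gene (SD, n = 5), so enalapril libraries lay within the lean range of 9.03 to 12.7 FPKM and MK-8722 libraries below it. In medulla ENSRNOG00000003119 was at 8.51, 3.87, 7.03, 9.34 and 4.82 FPKM at 10 mpk and 16.6, 11.2, 15.1, 22.4 and 15.4 FPKM under enalapril (-1.24, SE 0.24, adjusted p = 0.00533). ENSRNOG00000021524 was at 6.73, 3.39, 5.70, 7.5 and 3.30 FPKM against 12.4, 10.4, 11.6, 14.9 and 10.3 FPKM (-1.15, SE 0.22, adjusted p = 0.00534). None of these 4 pairs of groups overlapped, which the choice of named members required.

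Members higher at 10 mpk than under enalapril were led by the genes with a dose difference. ENSRNOG00000006873 differed by log2 2.86 in cortex (SE 0.18, limma adjusted p = 1.77e-10), and ENSRNOG00000020951 by 1.36 in cortex and 1.24 in medulla (adjusted p = 2.45e-08 and 4.94e-05). In medulla ENSRNOG00000006873 was not called (0.81, SE 0.33, adjusted p = 0.228). ENSRNOG00000050553 was at 7.07, 6.68, 7.13, 7.77 and 5.91 FPKM at 10 mpk in medulla and 3.40, 3.81, 5.08, 4.54 and 2.99 FPKM under enalapril, without overlap (0.75, SE 0.14, adjusted p = 0.00403). Lean medulla averaged 7.39 ± 1.6 FPKM for it (SD, n = 5), close to the 10 mpk mean of 6.91 ± 0.68. The other 2 called higher in medulla, named after their values were seen, were ENSRNOG00000007839 (0.66, adjusted p = 0.0237) and ENSRNOG00000021027 (1.05, adjusted p = 0.0329).

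Counts at 10 mpk against enalapril held within 39 to 53 in cortex when each library was left out. All-gene shares were not counted in these fits either. In medulla, leaving out enalapril replicate 3, 5, 6 or 7 gave 33, 7, 10 and 9. Leaving out 10 mpk replicate 1, 2, 3, 5 or 6 gave 38, 8, 9, 36 and 10. The members called each time any library was left out were 25 lower and 9 higher in cortex, and 4 lower and 2 higher in medulla.

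**Figure D5:**
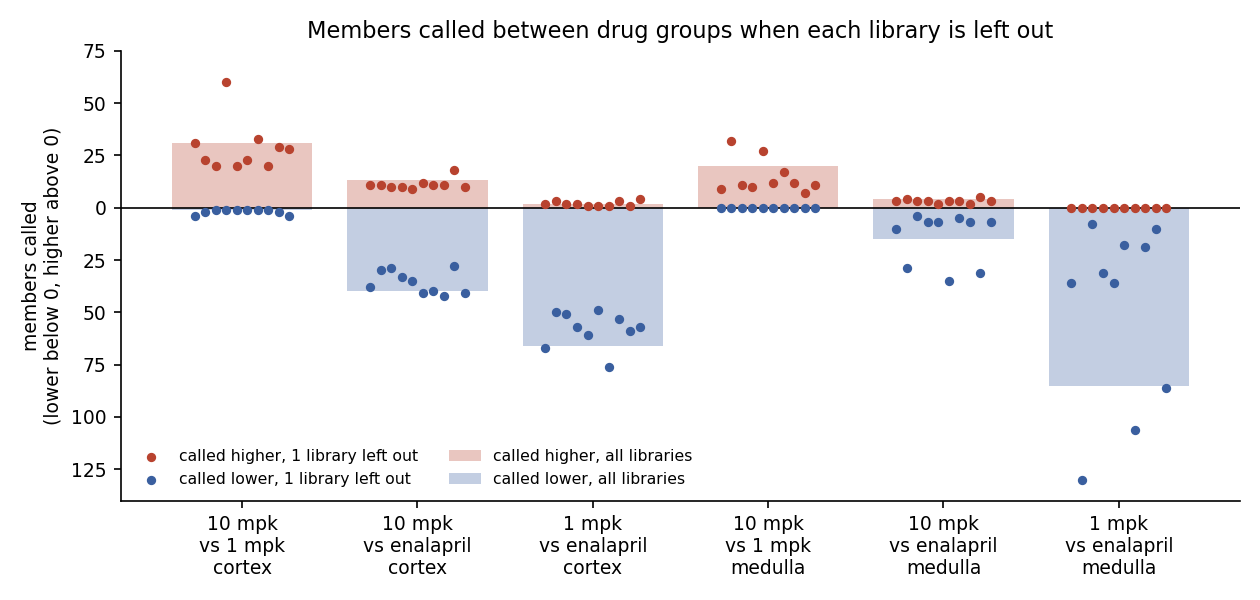
Bars give the members called higher (above 0) and lower (below 0) in each comparison of drug groups, and points give the same counts when each of the 10 compared libraries is left out in turn. At 1 mpk against enalapril the points run from 50 to 77 calls in cortex and from 8 to 130 in medulla, and 1 cortex fit of the dose comparison has 60 higher.

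Set beside obese vehicle, whose libraries also chose the members, the drug groups are described without inference. In enalapril medulla 195 of 198 members were above obese vehicle, with a median log2 of 0.55 against -0.14 for all genes. In limma 58 were called higher and 0 lower (all genes 1.57% and 9.06%), and 46 and 0 after rescaling (1.99% and 1.90%). In enalapril cortex 9 were called higher and 0 lower (all genes 0.479% and 13.9%), with medians of 0.15 and -0.18, and 6 and 0 after rescaling (0.637% and 1.35%). MK-8722 10 mpk gave 23 higher and 2 lower in medulla (1.6% and 16.5%). In cortex it gave 17 higher and 17 lower (2.12% and 24.5%), but 22 and 2 after rescaling (4.44% and 3.75%). MK-8722 1 mpk gave 0 calls in limma in either tissue, among members and among all genes. An unadjusted p under 0.05 was found there for 29 of 197 members in cortex (4.29% of all genes) and 3 of 198 in medulla (4.06% of all genes).

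Among called members without overlap between groups, those with the largest differences from obese vehicle were mostly named above. Under enalapril ENSRNOG00000002456 and ENSRNOG00000053850 led in cortex, at 9.97 ± 0.83 against 5.78 ± 1.69 FPKM and 10.5 ± 0.27 against 7.59 ± 1.22 FPKM (SD, n = 5). In medulla ENSRNOG00000003288 and ENSRNOG00000045743 led, at 39.5 ± 5.59 against 16.7 ± 11.0 FPKM and 38.0 ± 6.91 against 20.4 ± 8.62 FPKM. Some called members with overlapping values differed by more under enalapril. In cortex ENSRNOG00000011706 was at log2 0.51, beside 0.46 for ENSRNOG00000053850. In medulla ENSRNOG00000019481 and ENSRNOG00000006873 were at 1.34 and 1.15, beside 0.97 for ENSRNOG00000045743. At 10 mpk ENSRNOG00000009715 was lower than vehicle in cortex, at 8.91, 7.39, 6.77, 5.74 and 6.91 FPKM against 10.8, 10.2, 10.2, 11.1 and 10.1 FPKM. The 2 called lower in medulla were ENSRNOG00000005132, at 1.47 ± 0.18 against 2.53 ± 0.61 FPKM, and, named after its values were seen, ENSRNOG00000003119. These 2 genes thus stood further from lean at 10 mpk than with vehicle, in medulla. The enalapril call of ENSRNOG00000003288 was lost in 11 of 16 alternatives and that of ENSRNOG00000053850 in 11 of 18.

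The enalapril counts against vehicle rested on few libraries, and all-gene shares were not counted in the fits below. In medulla the count was 0 without enalapril replicate 5 or obese vehicle replicate 7. It was 19, 28 and 17 when enalapril replicate 2, 6 or 7 was left out, and 110 when its replicate 3 was. For obese vehicle replicate 4 or 6 it was 13 and 14, and for replicate 3 or 5 it was 94 and 114. In cortex, leaving out enalapril replicate 1, 2, 4, 6 or 7 gave 16, 4, 0, 1 and 2. Leaving out obese vehicle replicate 1, 2, 5 or 6 gave 0, 0, 31 and 0. No member was called each time in either tissue. At 10 mpk the medulla count was 38 without MK-8722 10 mpk replicate 2 and 16 without obese vehicle replicate 7. In cortex 12 higher and 10 lower members were called each time, and the replicate block gave 21 higher and 30 lower.

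Few members reached the lean level under any drug. In cortex the median member stood at 57.0% of the lean FPKM in obese vehicle, 62.6% in enalapril, 50.8% in MK-8722 1 mpk and 55.1% in MK-8722 10 mpk. In medulla these shares were 37.5%, 56.3%, 35.5% and 43.7%. At 10 mpk 5 members were at or above lean in cortex and 1, ENSRNOG00000006873, in medulla. The 5 in cortex, some named after their values were seen, were ENSRNOG00000006873 (log2 1.32 above lean), ENSRNOG00000020951 (0.64), ENSRNOG00000018950 (0.52), ENSRNOG00000007839 (0.21) and ENSRNOG00000019518 (0.05). Under enalapril 0 members were at or above lean in either tissue, although 53 in cortex and 12 in medulla lay within 0.5 of it. Members less than 0.5 below lean, or above it, numbered 32 in cortex and 9 in medulla at 10 mpk, and 7 and 0 at 1 mpk. At 1 mpk the 1 member above lean in cortex was ENSRNOG00000061087 (0.33, named after its values were seen), whose cortex values ran from 3.61 to 12.4 FPKM at 1 mpk and 2.45 to 11.6 FPKM in lean, and which is near 0 in some libraries of the other obese groups. All these distances share the lean libraries of the rule and are a description.

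Members differed in how they followed one another across the 30 drug-treated libraries. Within tissue, the median member's log2 profile was followed most closely by ENSRNOG00000031263 and ENSRNOG00000023588 (Pearson r = 0.963 and 0.962 over 30 libraries). Over all 198 members r had a median of 0.745, and 163 were above 0.5. The lowest was -0.341. ENSRNOG00000031263 was at 137, 101, 165, 173 and 147 FPKM in enalapril medulla and 52.1, 87.6, 59.5, 63.7 and 95.2 FPKM at 1 mpk (log2 -1.02, SE 0.23, limma adjusted p = 0.0182). At 10 mpk it was at 119, 50, 73.4, 124 and 72.3 FPKM, and the 2 doses were not called different (0.25, SE 0.23, adjusted p = 0.503). The correlation is a description, since libraries share depth and composition and the median was taken over these same members. It was not computed for other genes, so it is not shown to be particular to the members.

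Calls were also counted by the members' lean tissue ratio, without a test between these classes. At 1 mpk against enalapril in cortex, 56 of the 110 members within 2-fold between lean tissues were called lower, and 7 of the 14 cortex-rich members, but 3 of 73 medulla-rich members. In medulla 38 of 74 medulla-rich members were called lower, 46 of 110 within 2-fold and 1 of 14 cortex-rich members. At 10 against 1 mpk, the 20 higher calls in medulla included 12 medulla-rich and 0 cortex-rich members, and the 31 in cortex included 4 medulla-rich members. Members within 2-fold gave most of the lower calls in both tissues, but they are also 110 of the 198 members. In medulla a larger part of the medulla-rich members was called lower (38 of 74 against 46 of 110). Members rich in the other tissue gave few calls of either kind. Shares over all genes were not counted by class. Within groups, the median SD between cortex libraries was 0.48 for medulla-rich members, 0.29 for cortex-rich members and 0.24 for those within 2-fold (log2). In medulla it was 0.36, 0.49 and 0.35 in the same order. Members rich in 1 tissue thus spread more in the other, and those within 2-fold spread more in medulla.

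Genes rich in the other tissue, members left out, also varied between libraries, by lists chosen after the data were seen. The 110 IDs at least 4-fold higher in lean medulla, with an FPKM of at least 5 there, had median distances to lean cortex of 0.05 to 0.94 in obese vehicle, -0.10 to 0.30 in enalapril, 0.29 to 0.62 in MK-8722 1 mpk and -0.01 to 0.72 in MK-8722 10 mpk cortex libraries (log2). In obese vehicle they averaged 0.47 ± 0.40 (SD, n = 5), where the library medians of all genes averaged 0.31 above lean, and in MK-8722 1 mpk they averaged 0.45 beside 0.33. In enalapril and MK-8722 10 mpk they averaged 0.10 and 0.32, beside 0.14 and 0.13 for all genes. Among the cortex libraries of 10 mpk they were highest in replicates 2 (0.72) and 6 (0.60). The 56 IDs at least 4-fold higher in lean cortex had medians of -0.55 ± 0.66 in MK-8722 10 mpk medulla, 0.11 ± 0.36 in enalapril, -0.21 ± 0.45 in MK-8722 1 mpk and -0.18 ± 0.13 in obese vehicle medulla. All genes averaged 0.20, 0.24, 0.32 and 0.37 in the same order. Both lists were picked for low values in the same lean libraries that these distances start from, which favours distances above lean. The part of these genes in the member differences was not tested.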

How the data were processed

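Libraries were stranded and made from total RNA depleted of ribosomal RNA, per the labels' protocols. The authors deposited 1 table of FPKM values covering 32545 Ensembl IDs and 50 libraries, per the file headers. No source used here names the aligner, the counter or the build (not given in the sources used here). Columns were matched to samples by the library number in each sample's description. The table holds no fragment counts, and absolute depth is unknown. In genes seen in 5 to 22 libraries, 91.7% of 59507 low values in 5125 genes were whole multiples of 1 fragment within 0.1, which gave relative depth, and low values below 1 fragment also occur. No pair of libraries held identical values.

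The members and gene lists were chosen with earlier results of these data known. Marker lists, pathway lists and promoter motifs were not run, because 0 IDs matched a name, and no sequence is shown for the same reason. Tests were run in R 4.3.3 with limma 3.58.1 on log2(FPKM + 0.5), with its trend and robust options. The 25 libraries of a tissue entered 1 model with 5 group means, restricted to genes reaching 1 FPKM in 5 or more of them. The self-test on simulated data used the same code. Member IDs were named by a rule: the 2 deepest falls per tissue, up to 2 called members per direction and comparison with the largest difference and no overlap between groups, and the 2 members most like the median member.

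Alternatives were a pseudocount of 0.1, no filter, median-ratio rescaling, only the 2 groups fitted, the replicate number as a block, relative depth or, in cortex, library number range added to the model, and leaving out each library. Fitting the lower range of library numbers alone was chosen after seeing the data. Of the 25 cortex libraries, 8 have numbers in a separate higher range, 3 of them MK-8722 10 mpk. Same-numbered libraries deviated together with r over 0.1 in every pair only for MK-8722 10 mpk and obese vehicle cortex (3 pairs, r of 0.242 to 0.410 across genes), although no label states a pairing. There the block gave 21 members higher and 30 lower.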

Additional observations from a re-analysis of the deposited data

Results flagged for a closer look

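In groups of 5 libraries, a value was flagged, and kept, when its gap to the next value exceeded 0.71 of the group's range. Of 230 groups of values tested, 18 held such a library. Chance gives about 1 in 20 for independent groups of normal values. The groups here share libraries and members that vary together, so their number cannot be set against that share. Whole-member medians were unusual in 2 cortex groups. MK-8722 10 mpk replicate 6 was the lowest of its group, at a log2 distance to lean of -1.40, or -1.64 relative to all genes. MK-8722 1 mpk replicate 2 was the highest of its group relative to all genes, at -1.02.

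Single members were also flagged in cortex libraries of MK-8722 10 mpk. MK-8722 10 mpk replicate 6 was lowest for ENSRNOG00000031263 (38.5 FPKM) and ENSRNOG00000053850 (3.86 FPKM). ENSRNOG00000031263 was named for following the median member over libraries that include this one, so its low value there is not a separate result. Replicate 2 of the same group was highest for 7 members: ENSRNOG00000003119 (2.12 FPKM), ENSRNOG00000019481 (0.575 FPKM), ENSRNOG00000024903 (21.3 FPKM), ENSRNOG00000032246 (50.9 FPKM), ENSRNOG00000036984 (3.20 FPKM), ENSRNOG00000045743 (8.41 FPKM) and ENSRNOG00000052810 (1.15 FPKM). In that library the IDs rich in lean medulla also had the highest median of its group, 0.72 above lean, and their part was not tested.

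Other libraries stood out for 1 member each. In medulla these were enalapril replicate 5 for ENSRNOG00000002456 (12.3 FPKM, highest), MK-8722 1 mpk replicate 2 for ENSRNOG00000006873 (114 FPKM, highest), MK-8722 10 mpk replicate 6 for ENSRNOG00000020951 (53.3 FPKM, lowest) and lean vehicle replicate 7 for ENSRNOG00000011706 (12.01 FPKM, highest). In cortex they were lean vehicle replicate 2 for ENSRNOG00000033830 (9.39 FPKM, highest) and obese vehicle replicate 5 for ENSRNOG00000050553 (8.14 FPKM, highest).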

How the results depend on the processing

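None of the 28 differences of named members tested again changed sign under any alternative run. The balance of calls did for MK-8722 10 mpk against vehicle in cortex, with 17 higher and 17 lower, 22 and 2 after rescaling, and 21 and 30 with the replicate block. The cause of each change below was not tested unless stated. Apart from rescaling, shares over all genes were not counted in these alternatives. The rule itself gave 479 members after rescaling, all 198 included, 40 with falls of 1.5 and 1, and 168 to 212 when each library was left out. Over the alternatives for those 28, 426 kept the call and 52 lost it. With the replicate number as a block, calls numbered 5 in medulla for 10 against 1 mpk, 12 for 10 mpk against enalapril, 3 for 1 mpk against enalapril, 19 for enalapril and 16 for 10 mpk against vehicle, and 32 in cortex for enalapril against vehicle. Apart from MK-8722 10 mpk and vehicle cortex, those numbers are shared without a shown pairing. With relative depth as a term, cortex calls were 10 for 10 against 1 mpk, 0 for enalapril and 13 for 10 mpk against vehicle, and medulla calls were 11, 38 and 11, and 32 for 10 mpk against enalapril. Without the filter, medulla calls were 11 for 10 against 1 mpk, 12 and 40 for 10 and 1 mpk against enalapril and 21 for enalapril against vehicle, and cortex calls for the last were 3. With only the 2 groups fitted, which has fewer libraries, cortex calls were 15 for 10 against 1 mpk, 33 for 10 mpk against enalapril, 5 for enalapril and 11 for 10 mpk against vehicle, and medulla calls were 5, 28 and 9 for the last 3 of these. In the lower range of library numbers alone, cortex calls were 14, 12, 40 and 16 in the same order. Rescaling gave 11 for 10 mpk against enalapril in medulla. Leaving out each library gave, in cortex and medulla, 21 to 61 and 7 to 32 for 10 against 1 mpk, 39 to 53 and 7 to 38 for 10 mpk against enalapril, 50 to 77 and 8 to 130 for 1 mpk against enalapril, 0 to 31 and 0 to 114 for enalapril against vehicle, and 25 to 47 and 16 to 38 for 10 mpk against vehicle. Depth is lowest in obese medulla and limits members with few fragments there.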
